A study of Mus musculus with 22 samples.

Results

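The genes described here are the homeobox genes of families that are not usually counted among the regulators of the islets. They comprise the *Hox* genes, the LIM genes *Lhx* and *Lmx1*, the relatives of *Six4*, and the *Dlx*, *Msx*, *Otx*, *Gbx*, *Emx*, *Pitx*, *Prrx*, *Barx*, *Barhl*, *Tlx* and *Cdx* genes, *Nkx6-2*, *Nkx6-3*, and the POU genes of classes 2 to 4 without *Pou3f4*. They were chosen by symbol among protein-coding genes listed in at least 1 count table. A table listed only genes that summed to at least 10 counts, and no other measured value entered the rule. Of 30332 genes in either of 2 count tables, of which 18590 were protein-coding, 82 were members of the set. Of these, 57 were listed at both ages, 9 at E14.5 only and 16 at P9 only, while 15 further genes with matching symbols were not analysed here.

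The study deleted *Isl1*, a LIM homeobox gene, in pancreatic endocrine cells of the mouse and asked how their transcriptome changed. *Isl1CKO* cells carried *Isl1* f/f; *Neurod1Cre*; *TomatoAi14*, and control cells, labelled WT in the records, carried *Isl1* f/+; *Neurod1Cre*; *TomatoAi14*, so that both genotypes carried the Cre driver, the reporter and at least 1 floxed allele. Cre from *Neurod1* acts in endocrine cells, and tdTomato marks the cells in which it acted. Each library was made from 100 sorted tdTomato+ cells of male or female littermates, with 6 control and 5 *Isl1CKO* libraries of embryos at E14.5 and 5 control and 6 *Isl1CKO* libraries at postnatal day 9 (P9, pups of P9 or P10). Collagenase was used at P9 only, so age and preparation cannot be told apart.

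Homeobox genes encode transcription factors with a DNA-binding homeodomain. The *Hox* genes lie in 4 clusters and give cells their position along the body axis, and the other families act in regions such as the forebrain, the eye, sense organs, limbs, neural crest and gut tube. Islet cells depend on a separate group of homeobox genes, among them *Pdx1*, *Nkx6-1*, *Nkx2-2*, *Pax6* and *Isl1* itself, and genes of the other families are held silent by Polycomb proteins in many differentiated tissues.

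The libraries held 8477482 to 13580985 gene counts. *Chga*, a secretory granule protein, had 14913 to 241509 counts in the 22 libraries, and *Ins2* had 21479 to 4775929. Not every endocrine marker was abundant in each library. Of 11 such markers, with the deleted *Isl1* among them, 2 were higher and 3 lower in *Isl1CKO* at E14.5, where 1.43% of all genes passed (edgeR). At P9, 3 were higher and 5 lower, where 4.81% of all genes passed, so the groups differed in these markers. *Isl1* had 12635 to 16576 counts in E14.5 controls and 10148 to 11730 in E14.5 *Isl1CKO*, and 2382 to 3792 in P9 controls and 4477 to 14273 in P9 *Isl1CKO*, so that the libraries labelled *Isl1CKO* held more *Isl1* reads at P9. A gene count pools all exons and is no test of the recombination. The sum of 6 endothelial markers was higher in P9 *Isl1CKO*, at 5.71 to 70.9 CPM (counts relative to the scaled library size) against 1.36 to 4.18 in controls. *Cldn5* made most of these counts, at 34 to 1099 against 3 to 13. *Pecam1* had 0, 3, 4, 18 and 0 counts in controls and 4, 20, 5, 70, 28 and 0 in *Isl1CKO*, and *Cdh5*, *Kdr*, *Tek* and *Emcn* had 0 to 9 in all P9 libraries. Control library 2 at E14.5 and control library 4 at P9 stood apart in their *Hox* counts, as given below.

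Most members were present at trace levels, and few were detected. A member was called detected in a group when its mean was 10 or more scaled counts (counts scaled to a common library size) with a read in each library of the group, silent when the group held 3 or fewer counts in all, and trace otherwise. By this rule 11 of 82 members (13.4%) were detected in E14.5 controls and 11 in E14.5 *Isl1CKO*, against 68.2% and 68.5% of all protein-coding genes. At P9, 8 (9.76%) were detected in controls and 8 in *Isl1CKO*, against 63.1% and 63.6%. Trace levels were the rule, in 51, 47, 58 and 63 members of the 4 groups in the same order. Of all 18590 protein-coding genes, 4344, 4124, 5724 and 6064 were at trace levels. Listed members that were silent numbered 4, 8, 7 and 2. With those not listed at that age, 20, 24, 16 and 11 of 82 were silent or not listed, against 1569, 1723, 1132 and 707 of all protein-coding genes. In all, 36 members stayed under 10 counts in each library in which they were listed, and 66 were detected in no group. Exons of 26 members overlap those of another gene, 19 of them on the other strand, and since the kit does not mark the strand, such reads cannot be told apart. A count of 0 in a library still allowed 3 counts, or 0.191 to 0.358 CPM, by counting error alone.

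**Figure D1:**
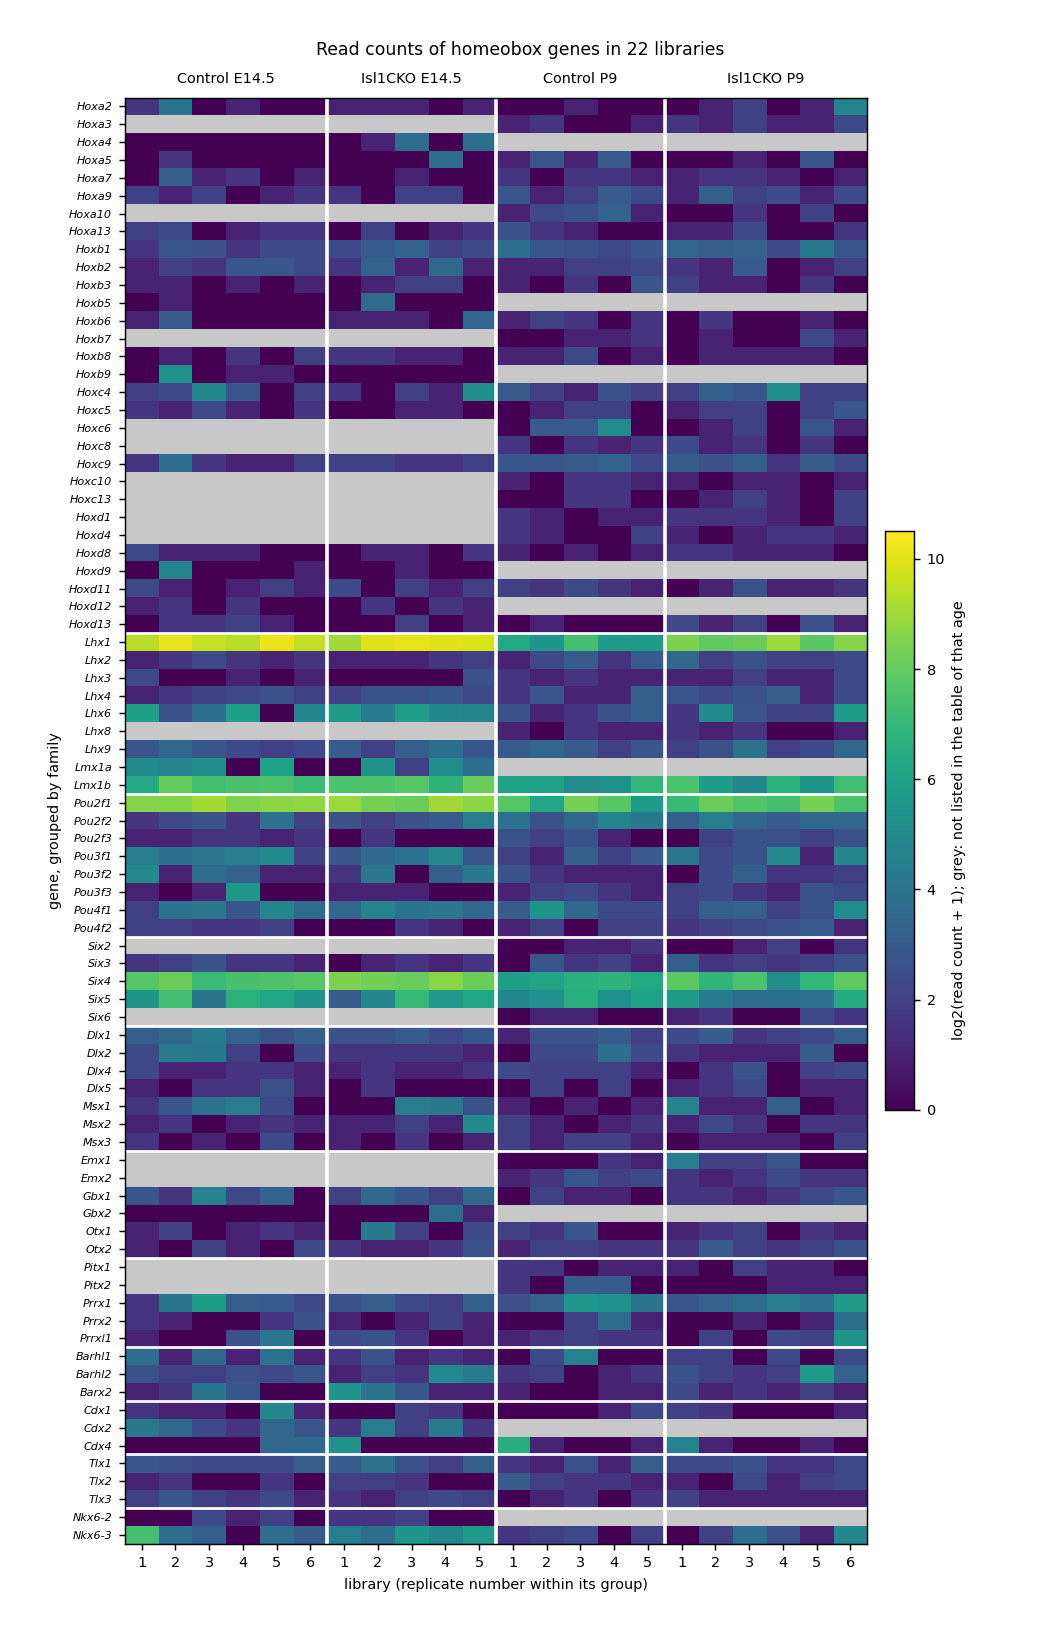
Read counts of the genes (rows, by family, without 1 member that is not reported here) in the 22 libraries (columns, by group), coloured as log2(count + 1), with grey where the gene was not listed in the table of that age. Unbroken bright rows are those of *Lhx1*, *Lmx1b*, *Pou2f1*, *Six4* and *Six5*, whereas most other rows are dark with single bright libraries.

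Exactly 5 members were detected in all 4 groups, and they are not silent in these cells. They were *Lhx1* and *Lmx1b*, LIM factors of kidney, limb and brain patterning, *Pou2f1*, the widely expressed octamer-binding factor OCT1, and *Six4* and *Six5*, relatives of the fly gene sine oculis that act in muscle, kidney and sense organs. Of the 5, only *Pou2f1* has exons that overlap those of a gene on the other strand, so its count may lack or include reads from there. These 5 genes took 75.1 to 90.5% of all member counts in E14.5 controls, 84.8 to 87.2% in E14.5 *Isl1CKO*, 59.9 to 73.3% in P9 controls and 70.0 to 80.1% in P9 *Isl1CKO*. Per kilobase of exon, *Lhx1* was the most abundant member in each group, at 17.5, 18.4, 2.05 and 6.44 CPM per kilobase in E14.5 control, E14.5 *Isl1CKO*, P9 control and P9 *Isl1CKO*. On that scale the median of the 16 islet homeobox genes was 35.5, 31.8, 4.87 and 1.08, and the median of the listed members was 0.0796, 0.0732, 0.0689 and 0.0593. The level of *Lhx1* in E14.5 controls thus lay between that of *Prox1* (25.5) and that of *Mnx1* (13.1), and in P9 controls below that of *Pou3f4* (2.54). In P9 *Isl1CKO* it lay between *Irx2* (8.16) and *Mnx1* (1.48).

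*Lhx1* was the one member whose level differed between the genotypes by the test over all genes, and it did so at P9. Its gene occupies chr11:84518284-84525535 on the minus strand (GRCm38), head to head with the long noncoding RNA gene *Lhx1os*, at chr11:84525660-84535831 on the plus strand. The promoter window of *Lhx1*, from 250 bases before to 50 after its RefSeq start (GRCm38.p6, chr11:84525485-84525784, minus strand), therefore takes in the starts of both genes. It is shown because both transcripts moved in the same comparison, with the 125 bases between the 2 starts in capitals.
Lhx1: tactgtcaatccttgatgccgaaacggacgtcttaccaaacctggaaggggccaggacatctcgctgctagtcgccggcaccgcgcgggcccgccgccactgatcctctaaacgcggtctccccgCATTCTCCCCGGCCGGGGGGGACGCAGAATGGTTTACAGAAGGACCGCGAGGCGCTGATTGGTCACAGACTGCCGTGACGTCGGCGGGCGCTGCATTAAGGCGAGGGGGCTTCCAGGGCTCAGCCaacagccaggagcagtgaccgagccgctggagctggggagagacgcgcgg

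At E14.5 *Lhx1* had 653, 1122, 767, 690, 1160 and 743 counts in the controls and 528, 1001, 1118, 1049 and 956 in *Isl1CKO*. The groups overlapped, with scaled means of 865 ± 206 (SD, n = 6) and 912 ± 216 (SD, n = 5), a log2 difference of 0.08 (SE 0.18) and an adjusted p of 0.93 (edgeR). At P9 the controls held 81, 43, 163, 53 and 52 counts and *Isl1CKO* 340, 242, 278, 484, 225 and 374. Each *Isl1CKO* library thus had more reads than any control, although on the scaled counts the highest control (189) just exceeded the lowest *Isl1CKO* library (187). The scaled means were 93.0 ± 56.3 (SD, n = 5) and 292 ± 114 (SD, n = 6), 3.14-fold higher in *Isl1CKO*, with a log2 fold change of 1.65 (SE 0.39) and an adjusted p of 0.024 (edgeR). The effect at P9 exceeded that at E14.5 by 1.58 on the log2 scale (SE 0.42, adjusted p 0.045, edgeR interaction term), where 1.23% of all genes tested passed in this direction, 0.851% in the other and 2.08% in all.

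The call at P9 rested on few libraries. Without control 1, 2, 4 or 5 or *Isl1CKO* 4 the adjusted p was 0.052, 0.065, 0.066, 0.064 and 0.065, with log2 fold changes of 1.65, 1.504, 1.56, 1.51 and 1.42, and the interaction passed in 5 of 22 fits that left out 1 library. *Cldn5*, and with it the sum of the endothelial markers, was also higher in P9 *Isl1CKO*. Library 2, with the lowest endothelial sum of that group (5.71 CPM, 34 *Cldn5* counts), had 242 *Lhx1* counts, and library 4, with the most *Lhx1* (484), had the most *Pecam1* (70). Library 6, with the highest endothelial sum (70.9 CPM, 1099 *Cldn5* counts), had 0 *Pecam1* and 374 *Lhx1* counts (266 scaled). Library 5, next in *Pecam1* (28), had the least *Lhx1* (225). The summed neural markers were lower in P9 *Isl1CKO*, at 79.9 to 123 CPM against 194 to 249. The part of these cells in the result was not tested. In RNA of pooled cells, a larger share of cells with a transcript and more transcript per cell cannot be told apart, here and in what follows.

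*Lhx1os* was not a member and was singled out after its values were seen. It had 330 to 669 counts in E14.5 controls (median 369.5) and 317, 490, 472, 513 and 599 in E14.5 *Isl1CKO*, overlapping throughout. At P9 it had 31, 18, 71, 41 and 21 counts in controls and 105 to 401 in *Isl1CKO* (median 187.5), with no overlap, as for 5.38% of the genes tested at P9. The log2 fold change at P9 was 2.13 (SE 0.49, adjusted p 0.020, edgeR) and exceeded that at E14.5 by 1.98 (SE 0.49, adjusted p 0.032). With single libraries left out, *Lhx1os* passed at P9 in 7 of 11 fits (adjusted p up to 0.055), failing without control 2 or 5 or *Isl1CKO* 4 or 6, and the difference passed in 13 of 22 (up to 0.071). Across the 22 libraries the 2 neighbours were high and low in the same groups.

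**Figure D2:**
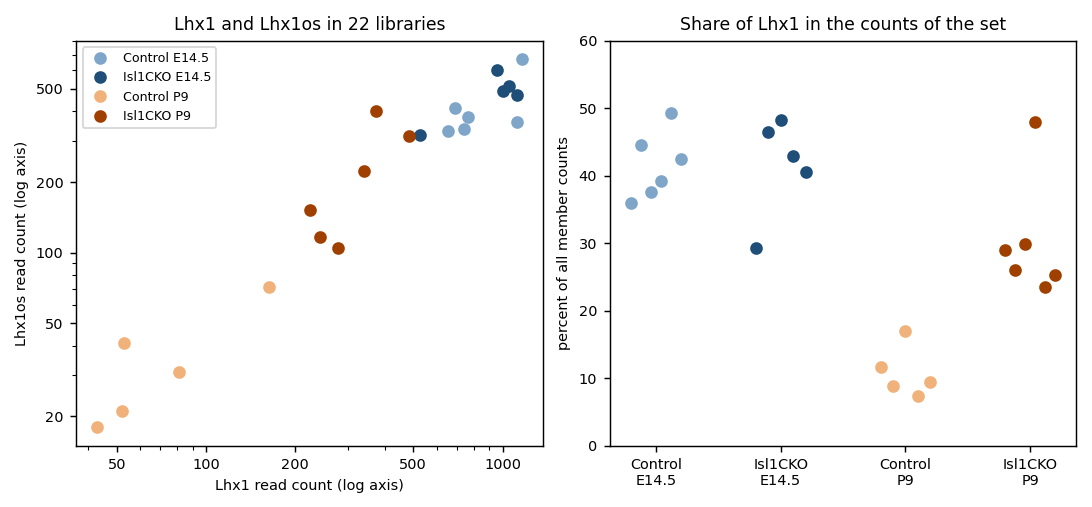
Left, read counts of *Lhx1* (x axis, log scale) and *Lhx1os* (y axis, log scale), 1 point per library. Right, share of *Lhx1* in the counts of all members in each library, in percent, from 7.33 to 16.9 in P9 controls and from 23.4 to 47.9 in P9 *Isl1CKO*.

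*Lhx1* also separated the ages. In controls its level, scaled over all 22 libraries, was 42.8 to 71.1 CPM at E14.5 (median 46.8) and 6.49 to 22.5 at P9 (median 8.38), without overlap, as for 20.9% of the genes in both tables. It was 4.80-fold lower at P9, with a log2 fold change of -2.26 (SE 0.31, adjusted p 6.5e-06, edgeR), and this call held in all 22 fits without 1 library. P9 *Isl1CKO* libraries, at 35.6, 27.2, 31.8, 60.9, 22.6 and 32.2 CPM, lay on average between the P9 controls and the E14.5 *Isl1CKO* libraries, which had 34.7, 51.8, 62.8, 65.5 and 66.6 CPM, and overlapped the latter. *Lhx1os* fell with age as well, with a log2 fold change of -2.31 (SE 0.37, adjusted p 3.9e-05, edgeR).

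**Figure D3:**
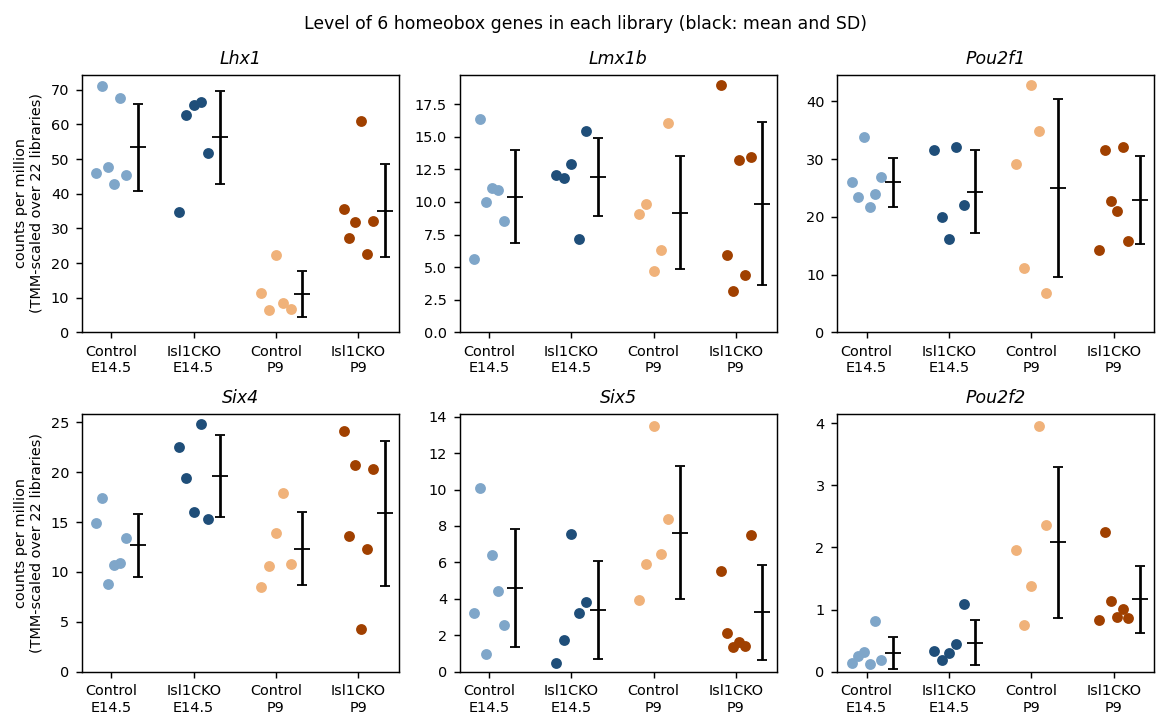
Level of the 5 members detected in all groups and of *Pou2f2* in each library (y axis, CPM on library sizes scaled over all 22 libraries), with the mean and SD of each group in black. *Lhx1* is lowest in P9 controls, with P9 *Isl1CKO* between them and E14.5, *Pou2f2* is higher at P9, and the other 4 genes overlap across all groups.

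The other 4 members detected everywhere did not pass the test in a genotype comparison. *Six4* came nearest at E14.5, with 142 to 274 counts in controls (median 199.5) and 343, 310, 274, 391 and 282 in *Isl1CKO*. The scaled counts overlapped, and the log2 difference was 0.63 (SE 0.21) with an unadjusted p of 0.0088 and an adjusted p of 0.21 (edgeR). At P9 *Six4* overlapped fully, with 61, 70, 101, 113 and 82 counts in controls and 34 to 236 in *Isl1CKO* (median 151.5). *Six5* tended the other way at P9, with 28, 39, 98, 41 and 64 counts in controls and 12 to 87 in *Isl1CKO* (median 16.5), a log2 difference of -1.23 (SE 0.62, adjusted p 0.33).

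*Pou2f1* and *Lmx1b* differed little between genotypes. *Pou2f1* held 350 to 544 counts in E14.5 controls (median 391) and 481, 318, 277, 506 and 408 in *Isl1CKO*, with a log2 difference of -0.09 (SE 0.19, adjusted p 0.93), and at P9 the difference was -0.13 (SE 0.43, adjusted p 0.93). P9 controls spread widely for this gene, at 209, 74, 311, 220 and 52 counts. *Lmx1b* differed by 0.19 at E14.5 (SE 0.27, adjusted p 0.87) and by 0.10 at P9 (SE 0.53, adjusted p 0.96), with 65, 65, 34, 40 and 122 counts in P9 controls and 28 to 181 in P9 *Isl1CKO* (median 79). Missing the threshold does not show that their levels were equal.

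Over the whole set the genotype tests thus gave few calls. At E14.5, 10 of the 66 listed members had enough counts to be tested, and 0 passed (edgeR), where 1.43% of all genes did (0.602% higher and 0.827% lower). None of the 10 had groups that did not overlap, as 2.49% of all genes had. The number with an unadjusted p under 0.05 was 1, *Six4*, and DESeq2 called 0 members as well. At P9, 7 of 73 were tested and 1, *Lhx1*, was higher, where 2.66% of all genes were higher, 2.14% lower and 4.81% changed in either direction. The median log2 difference of the tested members was -0.0064 at E14.5, where that of all genes was -0.0045, and -0.13 at P9, where it was 0.02. The other listed members, 56 at E14.5 and 66 at P9, were under the filter on low counts and were not tested here.

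**Figure D4:**
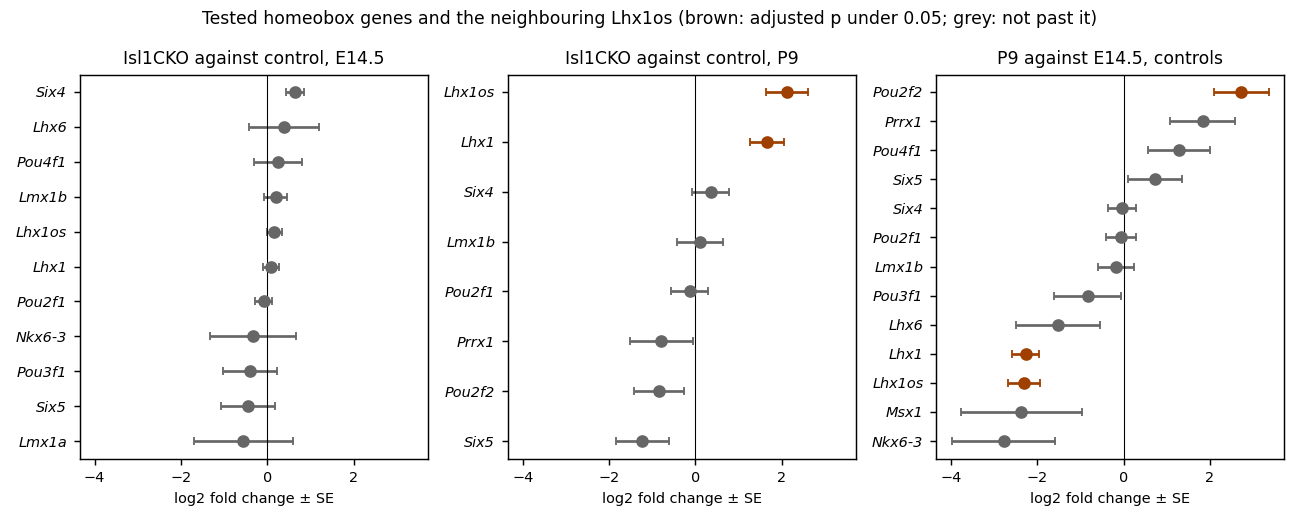
Log2 fold change (x axis) with its standard error for each tested member and for *Lhx1os*, in *Isl1CKO* against control at E14.5 and at P9 and in P9 against E14.5 controls. Brown points passed an adjusted p of 0.05: *Lhx1* and *Lhx1os* at P9, and these 2 with *Pou2f2* between the ages.

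Between the ages, 12 of the 57 members listed at both were tested in controls. Among them 1 was higher and 1 lower at P9, where 15.8% of all genes were higher and 15.2% lower, 31.0% in all. The lower gene was *Lhx1* and the higher was *Pou2f2*, the octamer-binding factor OCT2 best known from B cells and neurons. *Pou2f2* had 2 to 14 counts in E14.5 controls (median 3.5) and 14, 5, 10, 25 and 18 in P9 controls, and rose by 2.72 on the log2 scale (SE 0.64, adjusted p 0.0021, edgeR). Its ranges overlapped on scaled levels (0.124 to 0.815 against 0.755 to 3.95 CPM). The low *Hox* genes *Hoxb1* and *Hoxc9* were under the count filter of this test, and DESeq2, which kept them, gave log2 fold changes of 2.01 and 2.00 at P9 (adjusted p 0.0023 and 0.011). DESeq2 called 8 members higher in all, also *Hoxa9*, *Lhx2*, *Lhx9*, *Tlx2*, *Prrx1* and *Pou2f2*, and 2 lower, *Lhx1* and *Nkx6-3*, where it called 3749 of 24296 genes higher and 3109 lower. *Lmx1b*, *Pou2f1* and *Six4* differed by -0.18 (SE 0.42), -0.06 (SE 0.35) and -0.04 (SE 0.33). These values are relative to the normalization, since scaling by total counts, in which hormone reads weigh more at P9, moved the median gene by -1.21 between the ages. On totals *Lmx1b* (-1.38), *Pou2f1* (-1.204) and *Six4* (-1.22) passed as lower, each about as much as the median gene, and *Lhx1* was at -3.41. At P9 the same scaling moved the median gene by 0.68 and *Lhx1* to 2.28.

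The *Hox* genes made 30 of the 82 members, 8 each of clusters A and B and 7 each of clusters C and D, and none was detected in any group. Of 231 values at E14.5 (21 genes in 11 libraries) 93 were 0, 105 were 1 to 3, 21 were 4 to 9 and 12 were 10 or more. Of 275 values at P9 (25 genes), 73 were 0, 145 were 1 to 3, 51 were 4 to 9 and 6 were 10 or more. For the other families together 71.5% and 82.2% of values were under 10, against 94.8% and 97.8% for *Hox*. By position in the clusters, genes 10 to 13 had the lowest mean in each of the 4 groups and genes 1 to 4 the highest in 3 of them, and these differences were not tested. Genes numbered 1 to 4, expressed anteriorly, averaged 3.11, 4.33, 2.25 and 4.04 counts per gene and library in the 4 groups in the order above, those numbered 5 to 9 averaged 2.24, 1.33, 2.87 and 1.88, and the posterior genes 10 to 13 averaged 1.46, 1.30, 1.70 and 1.36.

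*Hoxb1*, which marks a segment of the embryonic hindbrain, was the steadiest. It was found in each of the 22 libraries, at 2 to 6 counts in E14.5 controls (median 4), 4, 7, 9, 3 and 4 in E14.5 *Isl1CKO*, 13, 6, 5, 4 and 6 in P9 controls and 4 to 18 in P9 *Isl1CKO* (median 8.5). *Hoxc9* was also found in each library, at 1 to 13 counts. No other *Hox* gene was. In contrast, several *Hox* genes came from 1 library almost alone. *Hoxb9* had 41 of its 43 E14.5 counts and *Hoxd9* 26 of 28 in control 2, and *Hoxa2* had 16 of 23 there at E14.5 and 25 of its 31 P9 counts in *Isl1CKO* 6. *Hoxc4* peaked at 28 and 36 counts in control 3 and *Isl1CKO* 5 at E14.5 and at 36 in *Isl1CKO* 4 at P9, and *Hoxc6* at 33 in control 4 at P9.

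**Figure D5:**
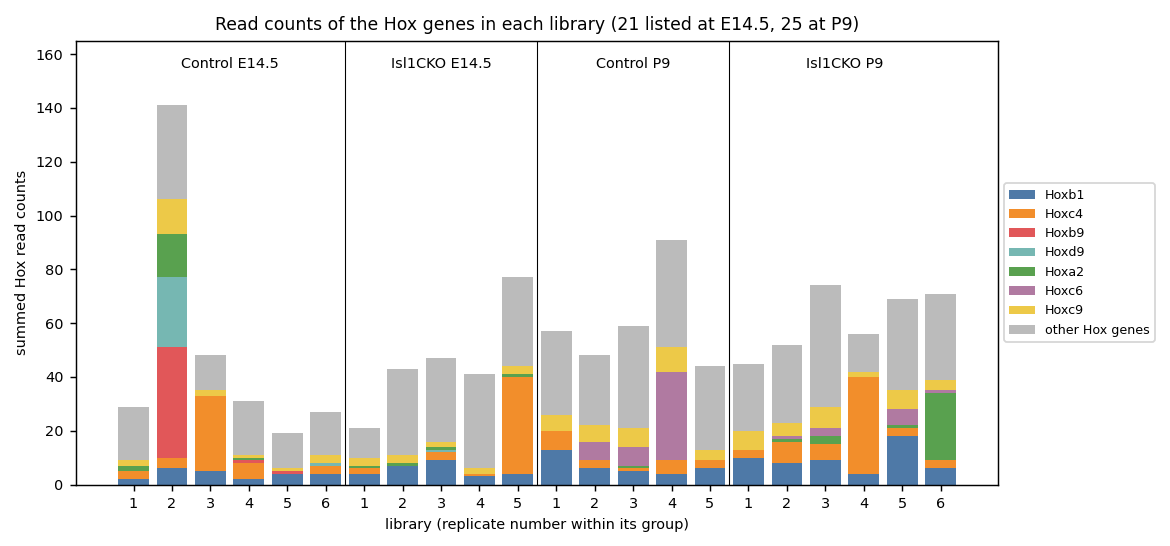
Summed read counts of the *Hox* genes in each library (y axis, stacked by gene, 7 genes shown by name) for the 21 genes listed at E14.5 and the 25 at P9. Control 2 at E14.5 reaches 141 and control 4 at P9 reaches 91, and the other 20 libraries lie between 19 and 77.

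Control library 2 at E14.5 held 141 *Hox* counts, against 29, 48, 31, 19 and 27 in the other controls and 21, 43, 47, 41 and 77 in *Isl1CKO*. The mean of the controls was 49.2 ± 46.0 (SD, n = 6) with it and 30.8 ± 10.6 (SD, n = 5) without it, and 7 of the 21 listed *Hox* genes were highest there among the 11 libraries. Markers of neural crest were high in the same library. It held 99 counts of *Sox10* and 50 of *Foxd3*, against at most 25 and 37 elsewhere at E14.5, and 5 of 9 listed neural markers, 3 of 8 mesenchymal, 3 of 7 acinar and 2 of 5 endothelial markers were highest there. Other neural markers were not, and *Th* (262 counts) and *Elavl4* (434) were lower in it than in any other control. The neural markers summed to 169 CPM in it and 148 to 180 CPM in the other controls, and the mesenchymal markers to 103 CPM against 22.1 to 65.4. The acinar and endothelial sums of this library were not high. They were 15.1 CPM against 11.1 to 279 and 1.02 CPM against 0.994 to 2.10 in the other controls. Control 4 at P9 held 91 *Hox* counts against 44 to 59 in the other controls (means 59.8 ± 18.5, n = 5, and 52.0 ± 7.16, n = 4, SD) and 45 to 74 in *Isl1CKO*. It also had 265 counts of *Col1a1* and a mesenchymal sum of 66.9 CPM. Control 3, with an ordinary *Hox* sum of 59 counts, had more *Col1a1* (327 counts) and a mesenchymal sum of 59.5 CPM, and the other controls had sums of 8.46 to 19.8. The part of such cells in the *Hox* counts was not tested.

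*Nkx6-2*, a relative of the islet gene *Nkx6-1* that acts in oligodendrocytes and neurons, had 0, 0, 4, 1, 3 and 0 counts in E14.5 controls and 2, 2, 3, 0 and 0 in E14.5 *Isl1CKO*, and was not listed at P9. Its exons overlap those of a gene on the other strand, and the libraries do not keep the strand. *Nkx6-3*, a stomach and duodenum factor, was higher but uneven. It had 168, 13, 8, 0, 13 and 7 counts in E14.5 controls and 21, 13, 46, 29 and 49 in *Isl1CKO*, a log2 difference of -0.33 with a standard error of 1.00, and 0 to 29 in P9 libraries. By comparison *Nkx6-1*, which is not a member, stood at 171 CPM per kilobase in E14.5 controls.

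*Cdx2* and *Cdx4* were low and uneven as well. *Cdx2*, the caudal factor of the intestine, had 18, 11, 4, 2, 10 and 6 counts in E14.5 controls and 2, 21, 3, 19 and 2 in *Isl1CKO*. *Cdx4* was at 0 in 4 of 6 controls and 4 of 5 *Isl1CKO* libraries at E14.5, with 40 counts in *Isl1CKO* 1. At P9 it had 92 counts in control 1, 25 in *Isl1CKO* 1 and 0 or 1 in the other 9 libraries.

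Other low members also had single bright libraries. Of the 45 members with 20 or more counts at E14.5, 8 had over 50% of them in 1 library, as had 8 of 47 at P9. The share over all genes of similar counts is not given here, so this is not shown to be particular to the set. Some comparison genes did the same. *Ptf1a* had 24 counts in E14.5 control 5 and at most 1 elsewhere at E14.5, and *Fabp1* had 487 in P9 control 5 and 0 elsewhere at P9. Among them were *Pou3f3*, a POU factor of brain and kidney, with 48 of 53 counts in E14.5 control 4, *Msx2*, a limb and skull factor, with 32 of 45 in E14.5 *Isl1CKO* 5, and *Barhl2*, a factor of retina and spinal cord, with 49 of 79 in P9 *Isl1CKO* 5. *Barhl2* also had 31 and 19 counts in *Isl1CKO* 4 and 5 at E14.5, where no control exceeded 6. *Barx2*, a factor of muscle and glandular epithelia, had 44 and 15 counts in *Isl1CKO* 1 and 2 at E14.5 and at most 16 in a control.

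The LIM genes *Lmx1a* and *Lhx6* were present in some libraries and missing from others of the same group. *Lmx1a*, which acts in midbrain dopamine neurons, had 30, 25, 35, 0, 67 and 0 counts in E14.5 controls and 0, 41, 3, 33 and 13 in *Isl1CKO*, and was not listed at P9. *Lhx6*, a factor of forebrain interneurons, had 59, 5, 13, 56, 0 and 27 counts in E14.5 controls and 52, 19, 58, 29 and 26 in *Isl1CKO*. Their log2 differences at E14.5 were -0.56 (SE 1.14) and 0.39 (SE 0.82). At P9 *Lhx6* had 5, 1, 2, 5 and 8 counts in controls and 2 to 53 in *Isl1CKO* (median 4.5), the 2 highest being 32 and 53.

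Of the neural POU genes, *Pou3f1* had 3 to 32 counts in E14.5 controls (median 18.5) and 6, 11, 15, 30 and 6 in *Isl1CKO*, and *Pou4f1*, known from sensory neurons, 3 to 27 (median 13.5) and 10, 26, 16, 17 and 10. Neither passed the test at that age, and neither was tested at P9. There *Pou3f1* had 3, 1, 8, 3 and 7 counts in controls (trace) and 17, 4, 5, 30, 1 and 28 in *Isl1CKO* (detected). At P9 *Pou4f1* had 43 counts in control 2 and 33 in *Isl1CKO* 6 and at most 10 elsewhere. *Prrx1*, a gene of limb and other mesenchyme, had 5, 9, 48, 39 and 16 counts in P9 controls and 6 to 55 in *Isl1CKO* (median 13.5), a log2 difference of -0.79 (SE 0.73, adjusted p 0.66). Its 2 highest controls were those with 327 and 265 counts of the collagen gene *Col1a1*, against 7 to 24 in the other controls. *Isl1CKO* 6, which held the 55, had 18 *Col1a1* counts, and it also held 43 of the 63 P9 counts of *Prrxl1*.

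Partners of these factors were mostly high enough to be tested. Of the Hox partners of the TALE class, 10 of 11 were tested at E14.5 and 1 was lower, *Meis2* (log2 fold change -1.16, SE 0.07, adjusted p 3.0e-06), and 0 of 8 passed at P9, where the list median was -0.60. Of 10 LIM cofactors, such as *Ldb1* and *Lmo4*, 9 were tested at E14.5 and 8 at P9 and 0 passed at either age, with list medians of -0.04 and 0.11. Among the cofactors of *Six4* and its relatives, *Eya1* was lower at E14.5 (-1.55, SE 0.30, adjusted p 0.020) and had a log2 difference of 1.26 at P9 (SE 0.58, adjusted p 0.28), and the difference between the ages passed (2.82, SE 0.65, adjusted p 0.022). Of 29 genes of Polycomb and its antagonists, 0 of 28 tested passed at E14.5 and 1 of 29 at P9, *Mtf2* (0.72, SE 0.17, adjusted p 0.024), which recruits Polycomb to CpG islands. Of 16 islet homeobox genes, 6 of 15 tested were lower at E14.5 and 0 higher, where 1.43% of all genes passed. At P9, 2 were higher and 2 lower of 13, where 4.81% of all genes passed. The list holds *Isl1*, the deleted gene, which was 1 of the 2 higher at P9 (1.08, SE 0.21, adjusted p 0.0081, edgeR). In 3 E14.5 *Isl1CKO* libraries (3, 4 and 5) the macrophage gene *C1qb* had 137, 323 and 59 counts, against 0 or 1 in each other E14.5 library. Without these 3, 1 of the islet genes was lower and *Eya1* did not pass. Only *Isl1CKO* libraries 1 and 2 then remained, which by itself lets fewer genes pass, and the part of macrophages was not tested. On total counts at P9, where the median gene moved by 0.68, the medians of the islet and TALE lists changed sign, to 0.32 and 0.05.

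RefSeq promoter windows of 300 bases (GRCm38.p6) were matched to 56 of the 82 members. The dinucleotide CG, which reads the same on both strands, occurred 10 or more times in 43 of them (76.8%), against 59.2% of 16522 protein-coding genes, and in 10 of 17 *Hox* windows. Low and abundant members both had such windows, as the following 3 show, with CG in capitals. That of *Nkx6-2* (chr7:139582748-139583047, minus strand, at most 4 counts in a library) and that of *Pou2f1* (chr1:166002585-166002884, minus strand, 277 to 544 counts at E14.5) each held 32, and that of *Hoxb1* (chr11:96365508-96365807, plus strand) held 10. Among members detected in at least 1 group, 11 of 12 matched windows held 10 or more, and among those detected in none, 32 of 44. This is a description of the windows and no test of what acts there.
Nkx6-2: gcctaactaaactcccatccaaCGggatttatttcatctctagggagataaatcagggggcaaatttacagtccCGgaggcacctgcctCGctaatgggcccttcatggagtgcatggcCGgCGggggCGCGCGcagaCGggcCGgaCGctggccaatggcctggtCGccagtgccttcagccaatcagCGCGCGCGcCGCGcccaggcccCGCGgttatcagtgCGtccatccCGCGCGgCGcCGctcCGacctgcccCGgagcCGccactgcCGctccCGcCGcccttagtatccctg
Pou2f1: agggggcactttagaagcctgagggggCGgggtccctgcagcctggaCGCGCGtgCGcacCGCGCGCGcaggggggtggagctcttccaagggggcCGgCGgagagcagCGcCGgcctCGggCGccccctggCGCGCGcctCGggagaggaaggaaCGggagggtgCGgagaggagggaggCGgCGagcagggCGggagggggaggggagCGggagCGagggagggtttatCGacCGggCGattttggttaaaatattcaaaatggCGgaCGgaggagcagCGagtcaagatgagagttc
Hoxb1: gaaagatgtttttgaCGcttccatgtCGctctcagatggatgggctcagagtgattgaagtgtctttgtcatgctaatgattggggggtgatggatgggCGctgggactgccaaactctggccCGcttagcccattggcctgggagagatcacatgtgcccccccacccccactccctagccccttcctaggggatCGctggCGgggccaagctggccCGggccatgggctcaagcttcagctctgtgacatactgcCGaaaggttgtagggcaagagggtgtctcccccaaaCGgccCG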

How the data were processed

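RNA of 100 sorted tdTomato+ cells per library, biological replicates according to the series design, was amplified with a low-input kit and sequenced on a NextSeq 500. The authors trimmed reads (cutadapt 1.18, Trimmomatic), removed ribosomal reads (Bowtie 1.2.2, SortMeRNA), aligned them to GRCm38 (STAR 2.7.0c) and counted uniquely mapped reads per gene. They deposited 1 table of raw counts per age, in which each listed gene summed to at least 10 counts. Columns of the authors' own comparisons were not used.

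Genes were named from GENCODE M21, which held 27078 of the 27124 E14.5 identifiers and 27456 of the 27504 P9 identifiers. Counts with TMM factors were tested with edgeR 4.0.16 (R 4.3.3), by quasi-likelihood tests within each age after its filter on low counts, and over all 22 libraries for age and for the difference of the genotype effects. The Benjamini-Hochberg adjustment covered every tested gene of a comparison (threshold 0.05), and all models were tested on simulated data. Depth was 8477482 to 13580985 counts per library, and floors cover counting error only.

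Alternatives were DESeq2 1.42.0, other scalings, no filter, the replicate number as a block, each library left out, other detection limits, and omission of 3 *Isl1CKO* libraries with macrophage transcripts. Named genes were *Nkx6-2*, *Lhx1*, members that passed in a genotype comparison or its difference between ages, the 10 highest per kilobase in each group, the 5 with the smallest p in each genotype comparison, up to 8 that passed between ages without overlap, and up to 6 members of each comparison list that passed. Any other gene was named after its values were seen. The members and lists were chosen with earlier results of these data known. Values of 1 member and of some comparison genes are not reported here.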

Additional observations from a re-analysis of the deposited data

Results flagged for a closer look

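In 80 checks of single libraries against the rest of their group, 21 values lay far above the others by Dixon's criterion. For normally distributed values chance meets it in about 1 of 20 groups. That rate does not apply here, since counts were low and many genes were named for a high group mean, which 1 library can raise. The following values are scaled counts unless stated. Among E14.5 controls these were *Barx2* (16.1), *Hoxc4* (28.1) and *Prrx1* (54.3) in library 3, *Hoxc9* (13.4) in library 2, *Nkx6-3* (190) in library 1 and *Pou2f2* (13.2) in library 5. Summed *Hox* counts in E14.5 control 2 reached 12.0 CPM. In E14.5 *Isl1CKO*, *Cdx4* stood at 42.9 in library 1, and *Hoxc4* at 31.5 and *Pou2f2* at 17.5 in library 5.

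Among P9 controls, *Cdx4* (107) and *Hoxb1* (15.1) stood apart in library 1, *Pou4f1* (54.1) in library 2 and *Hoxc6* (43.9) in library 4, where summed *Hox* counts reached 10.9 CPM. In P9 *Isl1CKO* the values were *Cdx4* at 21.8 in library 1, *Pou2f2* at 18.7 in library 2, *Hoxc4* at 38.0 and *Lhx1* at 511 in library 4, *Barhl2* at 40.8 in library 5 and *Pou4f1* at 23.5 in library 6. *Cdx4*, *Hoxc4* and *Pou2f2* each stood out in 3 of the 4 groups.

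The effect of *Isl1CKO* on *Lhx1* differed between the ages, by 1.58 on the log2 scale (adjusted p 0.045, edgeR interaction term). The difference passed in 5 of 22 fits without 1 library (adjusted p up to 0.092) and did not pass on totals without hormone genes (0.065).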

How the results depend on the processing

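Over all genes, 96 were higher and 132 lower at E14.5, and DESeq2 called 294 and 359. Without the 3 *Isl1CKO* libraries with macrophage transcripts the numbers were 19 and 23, and *Lhx1* changed sign, to -0.13 (adjusted p 0.98), neither value passing. A smaller *Isl1CKO* group by itself lets fewer genes pass. With single libraries left out they were 47 to 100 and 67 to 129. At P9, 372 were higher and 299 lower, against 911 and 766 with DESeq2, 3811 and 151 on total counts, and 457 lower on totals without 8 hormone genes. The 1 member that was higher at P9 passed in all of these settings, and 0 to 1 passed with single libraries left out. The differences of the effects gave 212 higher and 147 lower genes, against 525 and 399 with DESeq2, 3090 and 90 on totals, and 235 lower without hormone genes, where 0 members passed and *Lhx1* was at 1.47 (adjusted p 0.065). Leaving out single libraries gave 134 to 271 and 85 to 212 genes and 0 to 1 members. Between the ages 1 member was higher and 1 lower, against 8 and 2 with DESeq2, 6 higher without the filter, 3 higher without hormone genes and 8 lower on totals. With single libraries left out 1 to 2 were higher and 1 to 2 lower. Over all genes 2720 were higher and 2625 lower, against 605 and 10031 on totals. The causes were not tested. Requiring a mean of 20 scaled counts left 5 members detected in E14.5 controls, 7 in E14.5 *Isl1CKO* and 5 in P9 *Isl1CKO*, and a mean of 5 gave 21 in E14.5 *Isl1CKO*, 15 in P9 controls and 14 in P9 *Isl1CKO*. At 10 or fewer counts per library the depth limits any comparison of members.

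Replicate numbers did not pair the libraries (correlations of same-numbered deviations from -0.051 to 0.054). With the number as a block, 57 and 77 genes passed at E14.5, 179 and 154 at P9, 69 and 59 between the ages and 75 and 55 for the difference of the effects, and 0 members passed in any of these. Under the block *Lhx1* was at 1.76 at P9 (adjusted p 0.058), -2.24 between the ages (0.17) and 1.73 for the difference (0.072), and *Lhx1os* at 2.03 (0.076), -1.28 (0.51) and 1.91 (0.081).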
